A study of Mus musculus with 12 samples.

Results

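Cadherins are adhesion proteins through which neighbouring epithelial cells hold on to each other. The genes followed here are 8 cadherin genes, chosen by name, with earlier results of these data known. They are the classical cadherins Cdh1 and Cdh3, the desmogleins Dsg1a, Dsg2 and Dsg3, and the desmocollins Dsc1, Dsc2 and Dsc3. All probe sets annotated to 1 of these symbols were taken, which gave 16 of 45037 probe sets and 7 of 18193 measured genes. Dsg3 was not analysed here. Dsg2 had 6 probe sets, Cdh3, Dsc1, Dsc2 and Dsc3 had 2 each, and Cdh1 and Dsg1a had 1 each.

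Classical cadherins form adherens junctions, where E-cadherin (Cdh1) and P-cadherin (Cdh3) bind catenins that link them to the actin cytoskeleton. Desmogleins and desmocollins form desmosomes, where plakoglobin, plakophilins and desmoplakin couple them to keratin filaments. In mouse epidermis the desmosomal cadherins are layered, with Dsg1 and Dsc1 proteins most abundant in the suprabasal layers, and Dsc3 and Dsg3 in the basal layer. P-cadherin marks the basal layer and the lower follicle, including the hair germ, and it was one of the sort markers here. In the RefSeq annotation of assembly GRCm38.p6, Cdh3 and Cdh1 are neighbours. The 6 desmosomal members lie in 1 uninterrupted run of 9 protein-coding genes, which holds 3 other desmogleins (Dsg1c, Dsg1b and Dsg4) and nothing else.

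Expression was measured on 12 Affymetrix arrays of cells sorted by flow cytometry from the back skin of untreated female mice of mixed C57BL/6 and CD1 strain, 72 to 74 days old, around the second telogen-to-anagen transition. The sort used Rosa26-YFP, P-cadherin and CD34, and gave 3 fractions, namely cells of the hair germ (HG), cells of the bulge and all skin keratinocytes, called total keratinocytes. The genotypes were TßRII-cKO and TßRII-Het, a conditional knockout of the type II TGF-beta receptor and its heterozygous control, called cKO and Het below, with a driver of the deletion not given in the sources used here. In set 2 the labels call HG and bulge cells aberrantly quiescent in cKO and activated in Het, and in set 1 quiescent in both genotypes. This makes 8 groups of 1 array (HG and bulge, by genotype and set), and 2 groups of 2 arrays (cKO and Het total keratinocytes, 1 array from each set). The labels do not say how many mice an array stands for or whether fractions share mice. The p-values measure the spread between arrays that each fit leaves, part of which may be technical. With 1 array in each HG and bulge group, that spread is how a difference varies over conditions, or over fractions and sets. It is not a spread between replicates of a group.

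Values are log2 of MAS5 signal throughout, and the array medians lay between 64.1 and 109 on the linear scale. Cd34, the bulge sort marker, had 7.65 to 8.69 in HG, 14.42 to 14.79 in bulge and 10.03 to 11.30 in total keratinocytes. Of 4 hair germ markers 3 were called higher in HG than in bulge (beside 8.44% of all genes tested). Among bulge markers other than Cd34, which the gate selects, Sox9, Nfatc1 and Lhx2 were called lower and Krt15 was not (beside 10.7%). Basal keratinocyte markers (6 genes) averaged 11.99 to 13.56 in HG, 13.00 to 13.38 in bulge and 12.97 to 13.43 in total keratinocytes. Markers of other cells were unevenly spread over the fractions. The mean of 6 fibroblast markers per array was 9.94 to 11.04 in HG, 13.21 to 14.62 in bulge and 10.29 to 11.85 in total keratinocytes. The mean of 8 melanocyte markers was 9.78 to 10.35 in HG, 7.55 to 8.47 in bulge and 6.95 to 8.31 in total keratinocytes. Suprabasal markers (11 genes) averaged 8.66 to 10.34 in HG, 8.82 to 10.21 in bulge and 10.45 to 10.88 in total keratinocytes. The mean of 11 dissociation stress genes was highest in Het of set 2 among the bulge arrays (13.21) and in cKO of set 2 among the total keratinocyte arrays (13.67). In such sorted bulk samples fewer cells of a type and less RNA per cell cannot be told apart.

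Across the fractions the cadherins showed several patterns. Desmoglein Dsg2 was 3.11-fold higher in HG than in bulge and 2.29-fold lower in bulge than in total keratinocytes. Dsg1a was lowest in bulge, intermediate in HG and highest in total keratinocytes, with bulge 6.34-fold lower than total keratinocytes. Dsc1 was lower in both stem cell fractions than in total keratinocytes, and so was Cdh1. The call was kept in only 9 of 21 alternative settings for Dsc1 in HG and 5 of 21 for Cdh1 in bulge. Dsc2 and Dsc3 were not called between fractions. Comparisons were two-sided limma tests blocked by condition (each pairing of genotype and set), all 7 measured members passed the filter on low signal, and a gene was called at a Benjamini-Hochberg adjusted p under 0.05 over all genes tested. Cdh3 as a sort marker was given no test between fractions, which left 6 tested members. HG against bulge called 2 of the 6 (Dsg1a and Dsg2, both higher), beside 19.2% of 12589 genes tested (8.44% higher and 10.7% lower). HG against total keratinocytes called 3 of the 6, all lower, beside 10.8% of 12749 genes (5.11% higher and 5.72% lower). Bulge against total keratinocytes called 4 of the 6, all lower, beside 24.2% (13.8% higher and 10.5% lower). The last 2 comparisons share the total keratinocyte arrays, so their results are not independent.

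**Figure D1:**
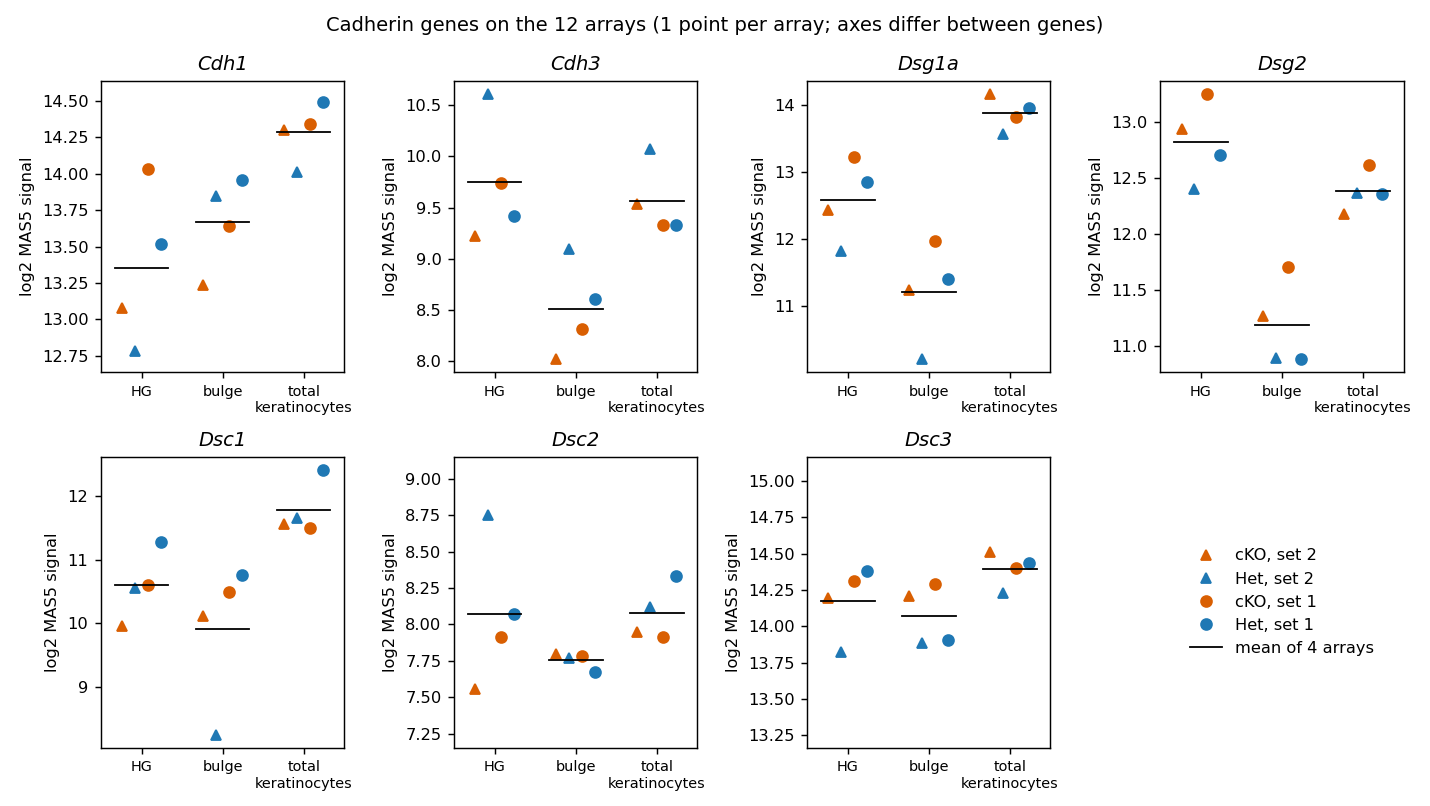
Log2 MAS5 signal of the 7 measured cadherin genes on each of the 12 arrays, by fraction, with colour for genotype, shape for set and a bar at the mean of 4 arrays. Dsg2 separates HG (12.40 to 13.25) from bulge (10.89 to 11.70) on all arrays, Dsg1a is highest in total keratinocytes (13.57 to 14.16), and 1 bulge array stands low for Dsc1 (8.25).

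**Figure D2:**
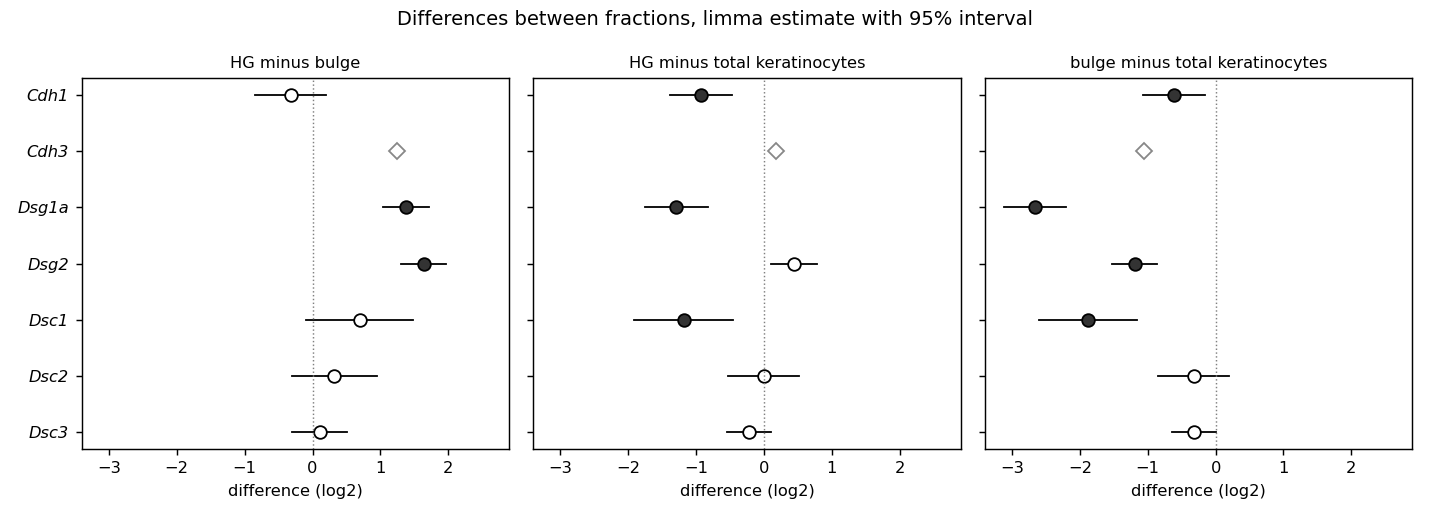
Limma estimates of the log2 difference between fractions with 95% intervals, where filled points passed an adjusted p of 0.05, open circles did not, and the grey diamond of Cdh3 has no test. In HG minus bulge the desmogleins stand to the right (1.37 and 1.64), and in bulge minus total keratinocytes all 7 estimates lie left of 0.

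Cdh1 encodes E-cadherin, the classical cadherin found throughout the epidermis. Cdh1 in HG had signals of 13.07 in cKO and 12.78 in Het of set 2, and of 14.04 in cKO and 13.52 in Het of set 1. Cdh1 in bulge had 13.23 and 13.85 in cKO and Het of set 2, and 13.64 and 13.96 in cKO and Het of set 1. Cdh1 in total keratinocytes had 14.30 and 14.01 in cKO and Het of set 2, and 14.34 and 14.49 in cKO and Het of set 1. All 4 bulge arrays lay below all 4 total keratinocyte arrays. In HG 3 arrays did so, while the cKO HG array of set 1 lay just above the Het total keratinocytes of set 2. Cdh1 averaged 13.35 ± 0.55 in HG, 13.67 ± 0.32 in bulge and 14.29 ± 0.20 in total keratinocytes (SD, n = 4 each).

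Cdh1 fell in HG relative to total keratinocytes by 0.93 (SE 0.21, adjusted p = 0.0174), which is 1.91-fold, and was lower in 4 of 4 conditions. In bulge the difference was -0.62 (SE 0.21, adjusted p = 0.04999), also lower in 4 of 4 conditions and just past the threshold. This bulge call was kept in 5 of 21 alternative settings, and the difference was -0.82 (adjusted p = 0.0127) without the Het bulge array of set 2 and -0.71 (adjusted p = 0.0671) without the cKO total keratinocytes of set 1. HG and bulge did not pass the test, with HG minus bulge at -0.32 (SE 0.23, adjusted p = 0.38, interval -0.84 to 0.20) and HG higher in 1 of 4 conditions. The HG call was lost without the Het HG array of set 1 (adjusted p = 0.0564), the cKO HG array of set 2 (adjusted p = 0.0684), the cKO total keratinocytes of set 2 (adjusted p = 0.0742), or with no filter on low signal (adjusted p = 0.0821).

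Cdh3 encodes P-cadherin, and its pattern over fractions follows from the gates, so it is a description. Cdh3 in HG had signals of 9.22 in cKO and 10.61 in Het of set 2, and of 9.74 in cKO and 9.42 in Het of set 1. Cdh3 in bulge had 8.02 and 9.10 in cKO and Het of set 2, and 8.31 and 8.60 in cKO and Het of set 1. Cdh3 in total keratinocytes had 9.54 and 10.07 in cKO and Het of set 2, and 9.33 in both cKO and Het of set 1. HG and bulge did not overlap, with HG higher by 1.24 on average (0.82 to 1.51 within a condition). Bulge lay below total keratinocytes by 1.06 on average, also without overlap, whereas HG and total keratinocytes overlapped (mean difference 0.18, HG higher in 3 of 4 conditions). The second Cdh3 probe set, with much dimmer signal, was 1.89 higher in HG than in bulge and at the floor of 4.37 on 1 bulge array.

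Dsg1a encodes desmoglein 1 alpha, one of the mouse copies of desmoglein 1, the desmoglein of the upper epidermal layers. Its near-identical neighbours Dsg1b and Dsg1c could share its signal, so the assignment to Dsg1a alone is uncertain. Dsg1a in HG had signals of 12.44 in cKO and 11.83 in Het of set 2, and of 13.23 in cKO and 12.85 in Het of set 1. Dsg1a in bulge had 11.24 and 10.22 in cKO and Het of set 2, and 11.98 and 11.41 in cKO and Het of set 1. Dsg1a in total keratinocytes had 14.16 and 13.57 in cKO and Het of set 2, and 13.81 and 13.95 in cKO and Het of set 1. Total keratinocytes lay above all HG and bulge arrays. HG and bulge overlapped over all arrays, since the cKO bulge array of set 1 exceeded the Het HG array of set 2, but HG was higher in each of the 4 conditions.

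Dsg1a rose in HG relative to bulge by 1.37 (SE 0.15, adjusted p = 3.81e-04), a 2.59-fold difference that ran from 1.20 to 1.61 over the 4 conditions. Relative to total keratinocytes the difference was -2.66 in bulge (SE 0.21, adjusted p = 4.72e-06) and -1.29 in HG (SE 0.21, adjusted p = 0.0044), each lower in 4 of 4 conditions. The order of total keratinocytes, HG and bulge thus held at each step, in all 17 alternative settings of the first comparison and all 21 of the other two. Dsg1b, the 1 measured neighbour outside the member list, had the same order, with 8.43 to 9.20 in HG, 7.49 to 8.45 in bulge and 9.53 to 10.08 in total keratinocytes. Its differences were 0.79 for HG minus bulge (adjusted p = 0.0394), -1.08 for HG minus total keratinocytes (adjusted p = 0.0074) and -1.87 for bulge minus total keratinocytes (adjusted p = 3.65e-05).

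Part of the suprabasal list was called lower beside Dsg1a in both stem cell fractions. Of 11 suprabasal genes, 5 fell in HG relative to total keratinocytes (median -0.95), beside 5.72% of all genes. In bulge 6 fell (median -1.15), beside 10.5%. The keratin Krt1 led both, at -2.75 and -2.95. The others were not called, and not all of them lay below 0. Between HG and bulge the list gave 1 higher gene, the transglutaminase gene Tgm3, and 1 lower, Sbsn, with a median of 0.07. Of all genes 8.44% were called higher and 10.7% lower there. Fibroblast markers rose in bulge relative to total keratinocytes in 6 of 6 genes (median 2.68), beside 13.8% of all genes. They differed there in the direction opposite to Dsg1a and Dsg2. In HG relative to total keratinocytes 3 of the 6 fibroblast genes fell (beside 5.72%). Melanocyte markers rose in 7 of 8 (median 2.38, beside 5.11%). The part of these cells in the cadherin differences was not tested.

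Dsg2 encodes desmoglein 2, the most widely expressed desmoglein, found in simple epithelia and in the hair follicle. Dsg2 in HG had signals of 12.94 in cKO and 12.40 in Het of set 2, and of 13.25 in cKO and 12.71 in Het of set 1. Dsg2 in bulge had 11.27 and 10.89 in cKO and Het of set 2, and 11.70 and 10.89 in cKO and Het of set 1. Dsg2 in total keratinocytes had 12.18 and 12.36 in cKO and Het of set 2, and 12.62 and 12.36 in cKO and Het of set 1. The bulge arrays lay below all others, and HG and total keratinocytes overlapped. Among tested members Dsg2 was the 1 with no overlap between HG and bulge, beside 9.33% of genes that were higher in HG without overlap.

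Dsg2 rose in HG relative to bulge by 1.64 (SE 0.15, adjusted p = 1.24e-04), between 1.51 and 1.82 in each condition. In bulge it fell by 1.19 relative to total keratinocytes (SE 0.15, adjusted p = 1.50e-04). Both calls were kept in each alternative setting (17 and 21). HG and total keratinocytes did not pass, at 0.44 (SE 0.15, adjusted p = 0.0829, interval 0.11 to 0.78), although HG was higher in 4 of 4 conditions. With a gene's probe sets averaged that difference was 0.10. The order of Dsg2 by mean was HG, total keratinocytes and bulge.

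The 6 probe sets of Dsg2 served as repeated readings of 1 gene from the same RNA, not as replicates. Of 5 that passed the filter, all were higher in HG than in bulge on average, between 1.33 and 1.64, and 4 were called, beside 14.5% of probe sets tested. The 1 that was not (1.40, adjusted p = 0.0698) was lower in HG in the cKO condition of set 2. All 5 had lower means in bulge than in total keratinocytes, by 1.15 to 1.96. This is a count by the sign of the mean. By adjusted p, a different measure, 18.3% of all probe sets tested were called in that comparison, in either direction. Against total keratinocytes HG gave estimates from -0.56 to 0.44, with none of the 5 called, beside 7.48%. The sixth probe set was near the floor, and lay at it on 3 of the 4 bulge arrays. Over the 12 arrays the pairs of Dsg2 probe sets correlated between 0.41 and 0.99, with the lowest values in pairs with that dim probe set.

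**Figure D3:**
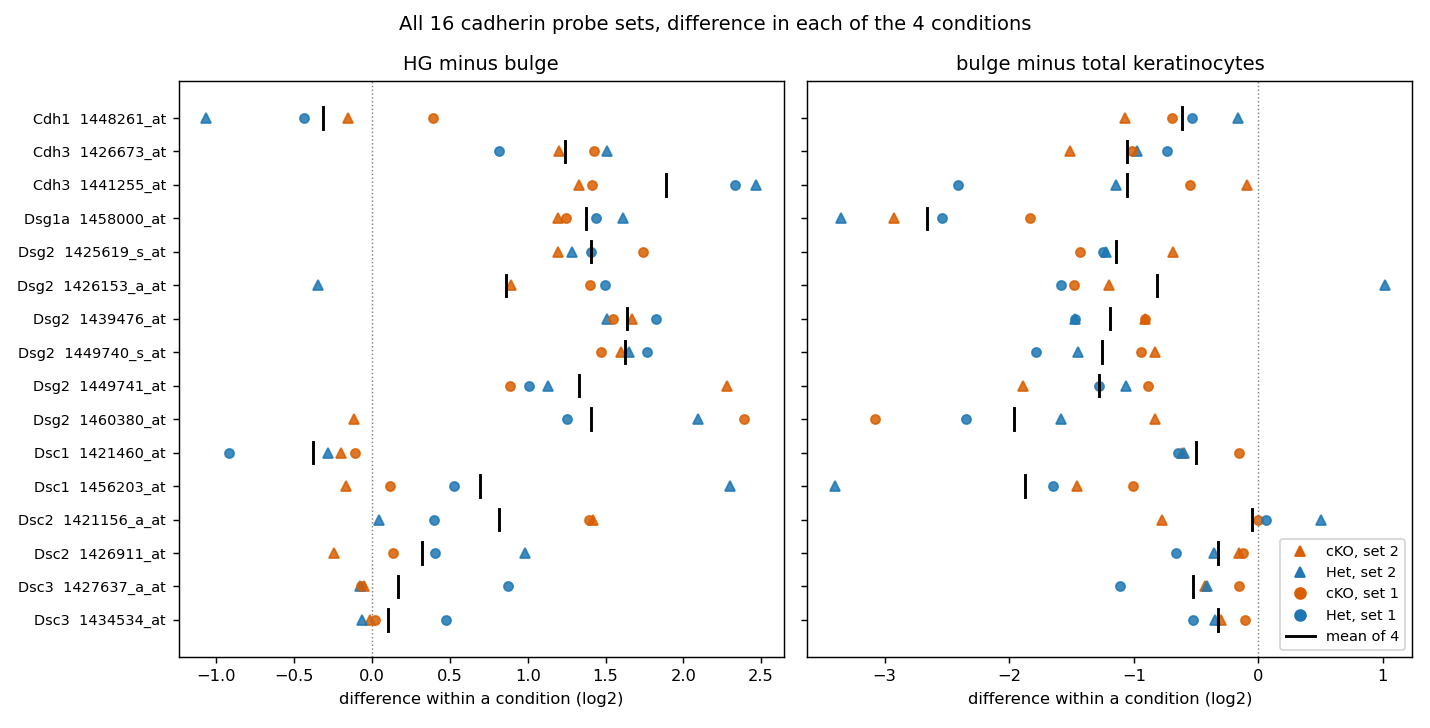
Difference in log2 signal within each of the 4 conditions for all 16 cadherin probe sets, HG minus bulge on the left and bulge minus total keratinocytes on the right, with a bar at the mean of 4. The readings of Dsg2 lie mostly to the right of 0 on the left panel (means of the 5 tested between 1.33 and 1.64), and the readings of Dsc1 lie on opposite sides of 0 (means -0.38 and 0.69).

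Dsc1 encodes desmocollin 1, which is expressed with desmoglein 1 in the upper epidermis. Dsc1 in HG had signals of 9.95 in cKO and 10.55 in Het of set 2, and of 10.61 in cKO and 11.29 in Het of set 1. Dsc1 in bulge had 10.12 and 8.25 in cKO and Het of set 2, and 10.49 and 10.76 in cKO and Het of set 1. Dsc1 in total keratinocytes had 11.57 and 11.65 in cKO and Het of set 2, and 11.50 and 12.41 in cKO and Het of set 1. Neither HG nor bulge overlapped total keratinocytes. The Het bulge array of set 2 lay far below the other bulge arrays.

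Dsc1 fell in bulge relative to total keratinocytes by 1.88 (SE 0.34, adjusted p = 0.0015), with -1.36 (adjusted p = 2.86e-04) without the Het bulge array of set 2 and -1.19 (adjusted p = 0.0040) with both probe sets averaged. The fall in HG was 1.18 (SE 0.34, adjusted p = 0.0419), a call kept in 9 of 21 alternative settings and missed at -1.38 (adjusted p = 0.0545) without the cKO total keratinocytes of set 1. HG and bulge did not pass, at 0.69 (SE 0.35, adjusted p = 0.20, interval -0.10 to 1.48), and without the low bulge array, or with both probe sets averaged, the difference was 0.16. The second Dsc1 probe set, which was dim, was lower in HG than in bulge in 4 of 4 conditions (mean -0.38). Against total keratinocytes that probe set gave -0.88 in HG (adjusted p = 0.16) and -0.50 in bulge (adjusted p = 0.39), lower in 4 of 4 conditions each and not called.

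Dsc2 encodes desmocollin 2, the widely expressed desmocollin that partners Dsg2 in many epithelia. Dsc2 in HG had signals of 7.55 in cKO and 8.75 in Het of set 2, and of 7.92 in cKO and 8.07 in Het of set 1. Dsc2 in bulge had 7.80 and 7.77 in cKO and Het of set 2, and 7.79 and 7.67 in cKO and Het of set 1. Dsc2 in total keratinocytes had 7.95 and 8.12 in cKO and Het of set 2, and 7.91 and 8.33 in cKO and Het of set 1. The bulge arrays lay close together and below all total keratinocyte arrays, while HG held both the highest and the lowest array. No difference passed. HG minus bulge was 0.32 (interval -0.30 to 0.94, adjusted p = 0.46), HG minus total keratinocytes was -0.0035 (interval -0.53 to 0.52) and bulge minus total keratinocytes was -0.32 (interval -0.84 to 0.20, adjusted p = 0.36). The second Dsc2 probe set, dim and at the floor on 3 arrays, did not pass the filter and was not tested. Its mean was 0.81 for HG minus bulge and 0.76 for HG minus total keratinocytes, with HG higher in 4 of 4 conditions each. For bulge minus total keratinocytes its mean was -0.05, with bulge higher in 2 of 4 conditions.

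Dsc3 encodes desmocollin 3, the desmocollin of the basal layer. Dsc3 in HG had signals of 14.20 in cKO and 13.82 in Het of set 2, and of 14.31 in cKO and 14.38 in Het of set 1. Dsc3 in bulge had 14.21 and 13.88 in cKO and Het of set 2, and 14.29 and 13.91 in cKO and Het of set 1. Dsc3 in total keratinocytes had 14.51 and 14.23 in cKO and Het of set 2, and 14.40 and 14.43 in cKO and Het of set 1. All 3 fractions overlapped. No difference passed, with HG minus bulge at 0.10 (SE 0.18, interval -0.30 to 0.51), HG minus total keratinocytes at -0.22 (SE 0.15, interval -0.54 to 0.11) and bulge minus total keratinocytes at -0.32 (SE 0.15, interval -0.64 to 0.0018, adjusted p = 0.14). HG and bulge were each below total keratinocytes in 4 of 4 conditions, and the second Dsc3 probe set had the same signs (-0.36 and -0.53), also not called. With quantile normalization, 1 of 21 alternative settings, Dsc3 was called lower in bulge than in total keratinocytes (-0.48, adjusted p = 0.0148).

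Counting arrays in place of tests, 5 of the 6 tested members had all bulge arrays below all total keratinocyte arrays (Cdh1, Dsg1a, Dsg2, Dsc1 and Dsc2), beside 11.2% of genes. The count uses the kept probe set of each gene. On the second probe sets of Dsc1 and Dsc2, and on the dim sixth one of Dsg2, bulge and total keratinocytes overlapped. HG lay wholly below total keratinocytes for 2 of the 6 (Dsg1a and Dsc1), beside 7.08% of genes. The median difference over all genes was -0.02 for HG minus bulge, 0.04 for HG minus total keratinocytes and 0.05 for bulge minus total keratinocytes.

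Junction partners were read from lists chosen by function, with earlier results of these data known. On the desmosome plaque list of 8 genes, which also holds the desmosomal membrane protein gene Perp, Jup fell in both stem cell fractions. Jup encodes plakoglobin, which binds classical and desmosomal cadherins alike. Jup had 10.65 to 10.93 in HG, 11.38 to 11.87 in bulge and 11.74 to 12.43 in total keratinocytes, so that HG lay below both other fractions without overlap. It fell in HG by 0.85 relative to bulge (adjusted p = 0.0066) and by 1.41 relative to total keratinocytes (adjusted p = 8.82e-04), and in bulge by 0.55 (adjusted p = 0.0295). Dsg2 and Jup therefore differed in opposite directions between HG and bulge.

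In HG against bulge Jup was the 1 gene called of the 8 on that list, beside 10.7% of all genes called lower, and the list's median was -0.63. In HG against total keratinocytes 4 of 8 fell (median -0.70), beside 5.72% of all genes. They were Jup, the envelope protein gene Evpl (-1.34) and the plakophilins Pkp3 (-1.29) and Pkp1 (-1.01). In bulge against total keratinocytes 3 fell, Pkp1 (-1.36), Evpl (-1.13) and Jup, beside 10.5% of all genes. There Pkp2 (1.28) and Perp (0.70) were called higher (list median -0.50), beside 13.8%. The 2 higher calls became 0 and the 3 lower ones 2 without the cKO total keratinocytes of set 1, and 0 and 3 with quantile normalization. Dsp, which encodes desmoplakin, the linker to keratin filaments, passed in no comparison, at -0.59 for HG minus bulge (adjusted p = 0.0944), -0.18 for HG minus total keratinocytes and 0.41 for bulge minus total keratinocytes.

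Among 14 adherens junction partners 3 fell in HG relative to bulge (median -0.19), beside 10.7% of all genes. They were Arvcf (-2.06, adjusted p = 3.45e-04), a catenin of the p120 family, Afdn (-0.92), the afadin gene that ties nectins to actin, and Lima1 (-0.74). In HG against total keratinocytes 5 fell and none rose (median -0.34), beside 5.72% and 5.11% of all genes. Among the 5 were Nectin4 at -1.25, Arvcf at -0.92, Nectin2 at -0.91 and the p120 catenin gene Ctnnd1 at -0.73. That count was 1 without the cKO total keratinocytes of set 1. In bulge against total keratinocytes 3 rose and 4 fell (median 0.05), beside 13.8% and 10.5% of all genes. Among them were Afdn at 1.25, Arvcf at 1.14, Nectin4 at -1.002, and Nectin2 and Ajuba at -0.72 each. Without the same array 2 rose and 2 fell. The alpha-catenin gene Ctnna1, which links the complex to actin, differed by at most 0.15 in size and was not called. Ctnnb1, the beta-catenin gene, was 0.51 higher in bulge than in total keratinocytes (adjusted p = 0.0177).

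**Figure D4:**
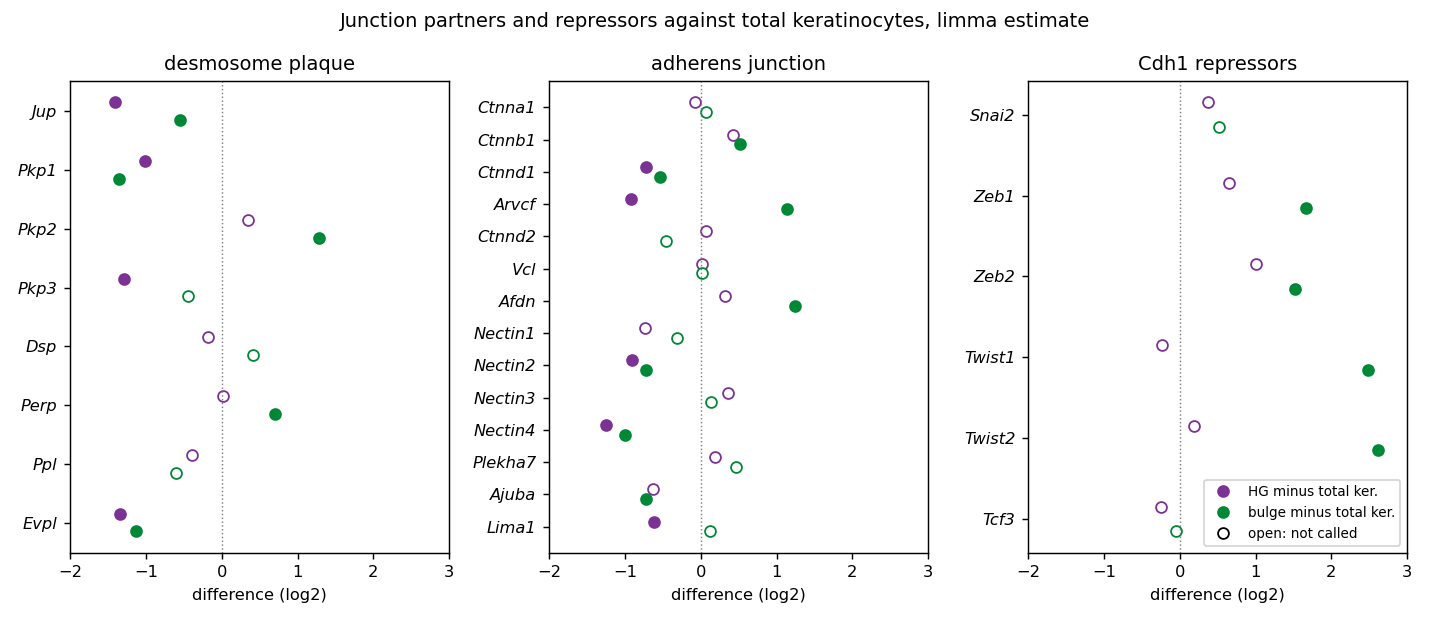
Limma estimates of the log2 difference against total keratinocytes for the desmosome plaque list, adherens junction partners and repressors of Cdh1, purple for HG and green for bulge, filled where the adjusted p was under 0.05. Jup lies left of 0 in both fractions (-1.41 and -0.55), and Twist1 and Twist2 lie farthest right in bulge (2.48 and 2.62).

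Repressors of Cdh1 and regulators of the epithelial state were read in the same way. Of 6 tested repressor genes 4 rose in bulge relative to total keratinocytes (median 1.59), beside 13.8% of all genes. They were Twist2 (2.62), Twist1 (2.48), Zeb1 (1.66) and Zeb2 (1.52). None was called in HG relative to total keratinocytes (median 0.28). Twist1 (-2.71) and Twist2 (-2.44) fell in HG relative to bulge, beside 10.7% of all genes called lower. These 4 are also genes of mesenchymal cells, and the fibroblast markers rose beside them in 6 of 6 cases, with Lum at 4.08. Of 17 other classical cadherins 7 were tested. Among them the mesenchymal cadherin gene Cdh11 (1.85) and the endothelial Cdh5 (1.49) also rose in bulge, beside 13.8% of all genes. Cdh4 fell in HG (-0.98) relative to total keratinocytes, beside 5.72%. Of 3 tested endothelial markers 2 rose in bulge (median 1.31), also beside 13.8% of all genes. The part of fibroblasts and endothelial cells in these values was not tested. Among 8 epithelial regulators none rose against total keratinocytes and 3 fell in HG and 4 in bulge (beside 5.72% and 10.5% of all genes). Grhl3, a grainyhead factor of barrier formation, differed by -1.79 in HG and -2.61 in bulge, and was higher in HG than in bulge by 0.82 (adjusted p = 0.0428).

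The set and genotype comparisons asked whether cadherin expression differs with activation and with loss of the receptor. None of the 7 members was called in any of the 6 comparisons of this kind. The sort used P-cadherin, so the gates may also constrain Cdh3 in HG and bulge here, and how far was not tested. For the comparison of cKO with Het over all fractions, with 6 pairs of arrays that share fraction and set, no gene of 12749 was called (0%), and 1099 had an unadjusted p under 0.05 with limma. Dsg1a was higher in cKO in 5 of 6 pairs, by 0.51 on average (SE 0.15, adjusted p = 0.50, interval 0.18 to 0.83), and Dsg2 in 5 of 6 pairs, by 0.39 (SE 0.14, adjusted p = 0.54). Cdh3 was higher in cKO in 1 of 6 pairs, at -0.50 (SE 0.22, adjusted p = 0.58), and these 3 genes had an unadjusted p under 0.05. With both probe sets averaged Cdh3 was at 0.000762, and with either set 2 HG array left out at -0.32. The other members lay between -0.30 and 0.21, and Cdh1 had the interval -0.35 to 0.35.

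**Figure D5:**
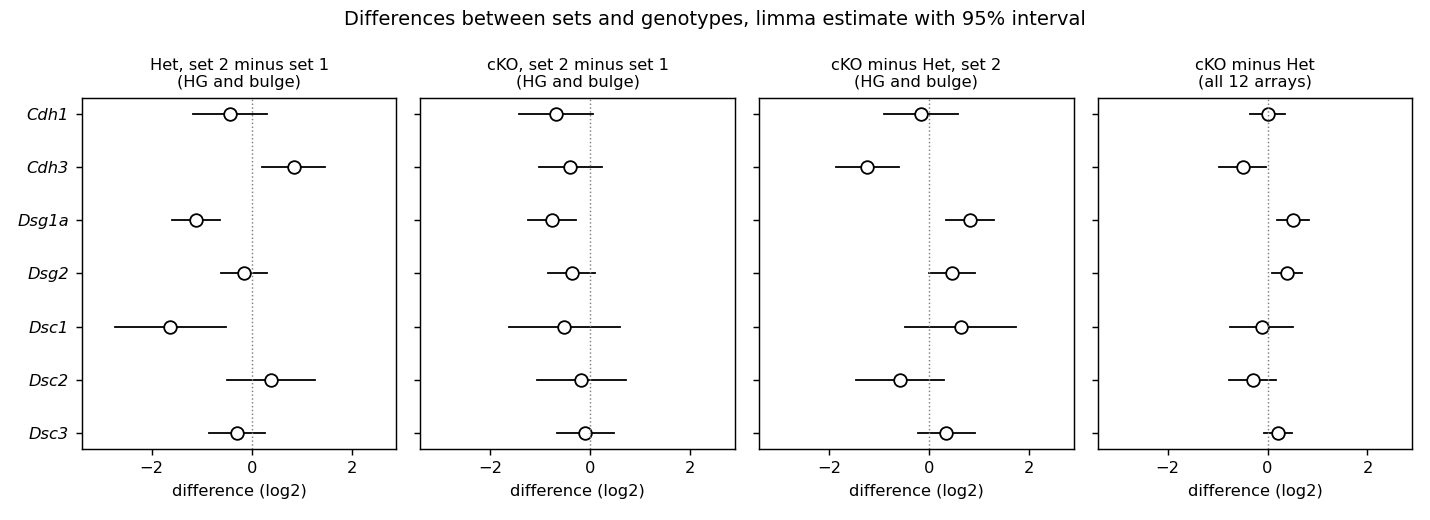
Limma estimates of the log2 difference with 95% intervals for set 2 minus set 1 in Het and in cKO, for cKO minus Het in set 2, and for cKO minus Het over all 12 arrays. No cadherin passed an adjusted p of 0.05, and Dsg1a lies left of 0 in both set comparisons (-1.11 and -0.76).

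In Het the comparison of set 2 with set 1, activated against quiescent cells by the labels, rested on the HG and bulge arrays as the observations of each condition. It called 89 genes (0.707% of 12589) and no cadherin. The lowest adjusted p among members was that of Dsg1a (-1.11, SE 0.21, adjusted p = 0.0557, interval -1.59 to -0.63), which averaged 11.02 in set 2 and 12.13 in set 1. Dsc1 was at -1.62 (SE 0.50, adjusted p = 0.17) and Cdh3 at 0.84 (SE 0.28, adjusted p = 0.20). Cdh1 was at -0.42 (adjusted p = 0.54, interval -1.16 to 0.32). With quantile normalization Dsg1a was called (-1.16, adjusted p = 0.0449). The sizes depended on the activated arrays. Leaving out either of them left 1 array in the condition, so only sizes are given here. With the Het HG array of set 2 left out, Dsg1a was at -1.26 and Dsc1 at -2.69. With the Het bulge array of set 2 left out, Cdh1 was at -0.92, Cdh3 at 1.02, Dsg1a at -0.95 and Dsc1 at -0.55. With both probe sets averaged Dsc1 was at -0.65 (adjusted p = 0.42). Beside them the suprabasal marker Lor (-2.93, list median -1.37) and the fibroblast marker Lum (-1.33) fell, and the cell cycle genes Cdc20 (1.61) and Mcm5 (1.23) rose. The Het HG array of set 2 stood apart from the other HG arrays in several lists. Its mean over basal keratinocyte markers was 11.99, against a median of 13.11 over the HG arrays, and over immune markers 7.30 against 9.01. It was also the lowest HG array for suprabasal, melanocyte, fibroblast, endothelial and stress genes, and the highest for hair germ and cell cycle genes. The Het bulge array of set 2 was the lowest bulge array for suprabasal, melanocyte, fibroblast and endothelial markers and the highest for stress genes. Among total keratinocytes, outside this comparison, the Het array of set 2 was lowest for basal, suprabasal, fibroblast, immune and stress genes. That array was highest for hair germ (10.30) and cell cycle genes (11.94), while cKO of set 2 was lowest for melanocyte and endothelial markers. The part of these differences in the cadherin values was not tested.

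In cKO the same comparison called no gene of 12589, with 777 at an unadjusted p under 0.05. Dsg1a was again lower in set 2 (-0.76, SE 0.21, adjusted p = 0.79), and Cdh1 was at -0.69 (SE 0.33, adjusted p = 0.80). Over the 6 pairs of a fraction and genotype, total keratinocytes included, Cdh1 was lower in set 2 than in set 1 in 6 of 6, by 0.04 to 0.96, beside 9.46% of genes. Dsg1a was lower in set 2 in 5 of 6 pairs, the exception being cKO total keratinocytes (0.35). Sets and activation state cannot be told apart in Het, since all activated cells were in set 2.

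The genotypes within set 1 gave no called gene, with 261 at an unadjusted p under 0.05, among them Dsg2 (0.68, SE 0.21). Within set 2 they gave 33 called genes (0.262%) and no cadherin. There Cdh3 averaged 8.62 in cKO and 9.85 in Het, a difference of -1.23 (SE 0.28, adjusted p = 0.11, interval -1.86 to -0.60), lower in cKO in HG (-1.38), bulge (-1.08) and total keratinocytes (-0.54). With both Cdh3 probe sets averaged the difference was -0.45 (adjusted p = 0.46). Dsg1a was at 0.82 (SE 0.21, adjusted p = 0.13), higher in cKO in HG (0.61), bulge (1.02) and total keratinocytes (0.59). Leaving out 1 Het array of set 2 left 1 array in that condition, so only sizes are given here. With the Het HG array left out, Dsg1a was at 0.97 and Dsc1 at 1.70 (0.63 with all arrays). With the Het bulge array of that set left out, Cdh3 was at -1.41. The interaction of genotype and set called 1 gene (0.00794%) and no cadherin, with Cdh3 at -1.24 (SE 0.40, adjusted p = 0.66). Without the Het HG array of set 2 Dsc1 was at 2.18 in the interaction (1.11 with all arrays). Without the Het bulge array of that set Cdh3 was at -1.42. Het HG cells of set 2 held the highest Cdh3 signal of the 12 arrays (10.61) and also the highest mean of 7 cell cycle genes (13.01). The other HG arrays had 9.22 to 9.74 for Cdh3. The Het arrays of set 2 also held the highest Cdh3 signal within bulge (9.10) and within total keratinocytes (10.07). Their cell cycle means were the highest within these fractions as well (10.25 and 11.94).

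The members differed in how they varied together over the 12 arrays, described by Pearson correlations of log2 signal. The arrays share fractions, so fraction differences enter these values. Dsg1a varied most like Dsc1 (r = 0.86) and Dsc3 (0.81), and less like Dsg2 (0.71). Cdh1 was nearly unrelated to Cdh3 (-0.03) and to Dsg2 (0.01), and was closest to Dsg1a (0.56). Cdh3 was closest to Dsc2 (0.71). Among 12742 other genes, those most like Cdh3 were Cdca8, a chromosomal passenger gene, Ncapd2, a condensin gene (0.98 each), and Ung, a DNA repair gene (0.97). Cdh1 was most like the Wnt ligand gene Wnt7b (0.98), C77080 and Cdc42bpg (0.97 each). Dsg1a was most like Plbd1, Chst15 (0.98 each) and Tspan5 (0.97), and Dsg2 most like Npr3 (0.97), Adamts1 and Cdca7l (0.96 each). Dsc1 was most like Ank3 (0.95), Plekha6 and the cornified envelope gene Ivl (0.92 each), Dsc2 most like Cdyl (0.93), Rnf4 (0.92) and Zbtb45 (0.90), and Dsc3 most like Cyp2j6, Gdpd2 (0.94 each) and Klk11 (0.92).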

How the data were processed

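The deposited values are MAS5 signal intensities on a linear scale, 1 column per array, made with MAS5 per the submitters' processing notes (its version was not given in the sources used here). On every array the mean without the top and bottom 2% is 500, which was checked. Controls (64 of 45101 probe sets) were removed. Of the rest 34945 had 1 gene symbol, 932 several and 9160 none, and 34741 were looked up by gene ID. Per gene the probe set of highest mean log2 signal was kept.

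Values under the pooled 25th percentile (20.7) were set to it before log2 (4.37). Genes that exceeded the pooled median (84.7) in 2 or more of the arrays fitted were tested in R 4.3.3 by limma 3.58.1, using lmFit and a trended eBayes. HG, bulge and total keratinocytes were compared within a block for condition (4 levels), and genotypes with fraction and set as a block of 6. Set and genotype effects within a level were contrasts among 4 conditions, with fraction added, over the 8 arrays of HG and bulge. All probe sets were also tested separately. Fits were tested on simulated data. The number of arrays limits the precision, and no detection calls were used.

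Set numbers in the labels are shared by all fractions. In total keratinocytes the deviations of the 2 sets correlated between genotypes (r = 0.40). Deviations of HG and bulge arrays of a condition correlated between 0.08 and 0.28, so not all pairs passed 0.1.

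The members and gene lists were chosen with earlier results of these data known. Genes were named by a rule. It took all members, up to 4 called genes of each list by size of change, and the 3 genes that correlated most with each member, and allowed any gene of the junction and repressor lists. Alternatives were quantile normalization, other floors and filters, averaging a gene's probe sets, all probe sets tested separately, eBayes without trend, no block, all 12 arrays for set effects, and leaving out each array. List counts under 3 of these settings were added after the values were seen.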

Additional observations from a re-analysis of the deposited data

How the results depend on the processing

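Over 22 settings, 12 of which left out 1 array, there were 1146 results for single cadherins. Of these 1062 kept their direction and side of the threshold, 32 lost and 12 gained a call, and 40 changed sign. An uncalled value that stayed uncalled with the same sign counts as kept. The Cdh3 values between fractions, which had no test, are included by direction alone. None of the sign changes concerned a called value. The count of called cadherins was 2 in all 17 settings of HG against bulge and 3 to 5 in bulge against total keratinocytes. In HG against total keratinocytes 3 became 1 with no filter, and 1 to 3 without 1 array (1 without Het HG of set 1, cKO HG of set 2 or cKO total keratinocytes of set 2). In Het set 2 against set 1 it was 1 with quantile normalization and 0 to 3 without 1 array, in cKO against Het of set 2 it was 0 to 2 and in the interaction 0 to 1 without 1 array. A condition left with 1 array is taken to vary like the others, and the counts over all genes also ranged widely in these settings. The cause was not tested.

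Without the replicate block HG against bulge called 1736 genes and 2 cadherins, and HG against total keratinocytes 694 and 2 (Dsc1 at adjusted p = 0.14). Bulge against total keratinocytes called 2407 and 3 (Cdh1 at adjusted p = 0.11), and cKO against Het 0 and 0. The block changed no other cadherin call. All genes called ranged over settings from 648 to 3877 in HG against bulge, 348 to 2036 in HG against total keratinocytes and 2249 to 4988 in bulge against total keratinocytes. In Het set 2 against set 1 they ranged from 0 to 2552 (419 with all 12 arrays in the fit), in cKO from 0 to 92, in cKO against Het from 0 to 3 in set 1 and 0 to 2438 in set 2, and in the interaction from 0 to 994.

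With the mean of all probe sets these changed sign: Dsc2 in HG against total keratinocytes (0.38), Cdh3 in cKO against Het (0.000762), Dsg2 (0.26) and Dsc3 (0.080) in Het set 2 against set 1, Dsg2 in cKO against Het of set 2 (-0.069) and Dsc3 in the interaction (-0.14). With quantile normalization Cdh3 in cKO against Het of set 1 became -0.070 and Cdh1 in set 2 0.000126. Sign changes without 1 array gave these ranges. Dsc3 ran from -0.019 to 0.16 in HG against bulge, and Dsc2 from -0.22 to 0.16 in HG against total keratinocytes. In cKO against Het Cdh1 ran from -0.10 to 0.13 and Dsc1 from -0.51 to 0.047. In Het set 2 against set 1 Cdh1 ran from -0.92 to 0.076 and Dsc2 from -0.057 to 0.83. In cKO set 2 against set 1 Dsc1 ran from -1.09 to 0.055 and Dsc2 from -0.55 to 0.20. In cKO against Het of set 1 Cdh1 ran from -0.37 to 0.57, Cdh3 from -0.27 to 0.29, Dsc2 from -0.15 to 0.10 and Dsc3 from -0.088 to 0.40. In set 2 Cdh1 ran from -0.66 to 0.34 and Dsc1 from -0.44 to 1.70, and in the interaction Cdh1 from -0.76 to 0.24 and Dsc3 from -0.053 to 0.44. Dsc2 has no value with the filter at the 75th percentile.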
